A study of Homo sapiens with 4 samples.

Results

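The mitochondrial genome of human cells is transcribed separately from the nuclear chromosomes, and the levels of all its genes were read here in 2 colorectal cancer cell lines grown as adherent cells or as spheroids. The genes were taken as every row of the deposited expression table whose gene name begins with MT-, which gave 37 of 58735 genes. Sorted by the biotype in the table, 13 are protein-coding mRNAs, 2 are rRNAs and 22 are tRNAs. All 37 lie on the mitochondrial chromosome (MT) of GRCh38, between positions 577 and 16023, with the coordinates that GENCODE 29 gives them, and every one of them is a single exon.

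RNA-seq was performed on 4 libraries, with 1 library in each group. HCT116 and LOVO are established human colon cancer lines, both labelled WT for genotype. Adherent HCT116 and LOVO cells were kept in RPMI-1640 with fetal bovine serum and carry the treatment label NO. HCT116 spheroids and LOVO spheroids carry a treatment label of 1 mg/ml without the name of a drug. The study's methods describe spheroids formed in ultra-low attachment dishes, in serum-free medium with growth factors and with oxaliplatin at 1 μg/ml, so growth form, medium and drug cannot be told apart in any comparison of spheroids with adherent cells.

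Mitochondrial DNA is a small circle that codes for the core subunits of 4 complexes of oxidative phosphorylation and for the RNAs that translate them. Both of its strands are transcribed by the polymerase POLRMT into long precursors, which are cut mainly at the tRNAs that lie between the mRNAs and rRNAs. The heavy-strand precursor carries most genes, and the light-strand precursor carries MT-ND6 and 8 of the tRNAs, the members on the minus strand of the annotation. RNAs cut from the same precursor are known to reach different final levels, since some last longer than others. The other subunits of these complexes, and every protein that copies, transcribes or cuts the mitochondrial genome, are encoded in the nucleus.

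Several of the results below turn on a few tRNAs and on the shared end of MT-ATP8, so their sequences are shown first. They were read from the GENCODE 29 transcripts, 5′ to 3′, and the capitals mark the anticodon of a tRNA. MT-TN, MT-TC, MT-TY and MT-TP held most tRNA reads, and MT-TD and MT-TS1 had the largest differences between the lines.
MT-TN: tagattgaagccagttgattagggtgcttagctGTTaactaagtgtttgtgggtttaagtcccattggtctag
MT-TC: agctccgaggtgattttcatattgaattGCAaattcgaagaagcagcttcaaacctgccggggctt
MT-TY: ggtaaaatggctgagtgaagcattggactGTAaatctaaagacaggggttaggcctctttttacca
MT-TP: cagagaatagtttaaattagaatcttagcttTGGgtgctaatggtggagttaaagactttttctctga
MT-TD: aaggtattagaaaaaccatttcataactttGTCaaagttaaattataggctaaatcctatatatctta
MT-TS1: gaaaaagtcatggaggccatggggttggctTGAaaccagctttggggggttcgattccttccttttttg
In MT-ATP8 the capitals mark the last 46 bases, which are also the first 46 bases of MT-ATP6 in another reading frame (MT, positions 8527 to 8572, plus strand). A read that lies in these bases cannot be assigned to either gene by its sequence.
MT-ATP8: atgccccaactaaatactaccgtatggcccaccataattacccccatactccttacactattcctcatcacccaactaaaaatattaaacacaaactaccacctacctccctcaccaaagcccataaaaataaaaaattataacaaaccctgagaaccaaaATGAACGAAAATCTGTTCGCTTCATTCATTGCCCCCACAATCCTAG

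Expression was deposited as FPKM, fragments counted on a gene, divided by its length in kilobases and scaled to 1000000 fragments a library. The scale is meant to set levels of genes of different length side by side. It divides by the full annotated length, and whether that suits genes as short as the tRNAs and MT-ATP8 was not tested. The reads on genes that the FPKM values imply ranged from 15483569 to 20429147 per library. Differences were taken as spheroids minus adherent cells, or LOVO minus HCT116, on the log2(FPKM + 1) scale, and 14429 genes whose FPKM averaged 1 or more over the libraries were compared. That filter kept 13 of 13 mRNAs, 2 of 2 rRNAs and 19 of 22 tRNAs. With 1 library per group no difference within a line has a replicate check. Intervals in parentheses are 95% intervals of the log2 ratio of the read counts of 2 libraries (exact Clopper-Pearson), cover counting error only, and compare libraries rather than conditions.

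Before any comparison the labelled cell type was checked against its markers. EPCAM, an adhesion protein of epithelium, had an FPKM of 85.6 in adherent HCT116 and 79.3 in HCT116 spheroids, but 0.93 in adherent LOVO and 1.5 in LOVO spheroids. CDX2, the intestinal transcription factor, was listed at 0 in both LOVO libraries. Of 10 markers of colorectal epithelium, 5 and 6 reached an FPKM of 1 in the HCT116 libraries (adherent, spheroids) and 3 and 4 in the LOVO libraries. Their summed FPKM was 1723 and 1257 in HCT116 and 327 and 187 in LOVO. KRT8 stayed high in LOVO, at 189 and 81.6 (571 and 418 in HCT116), as did KRT18, at 122 and 98.8 (253 and 206). KRT19 had 14.9 and 4.85 in LOVO, against 808 and 543 in HCT116. CDX1, VIL1, LGALS4 and CDH17 were at 0.381 or less in every library of both lines. The LOVO libraries therefore went against their label on EPCAM, CDX2 and KRT19, but not on KRT8 and KRT18. LOVO is used below as the name of the labelled libraries. Of 12 markers of fibroblasts, leukocytes and endothelium, 1 reached an FPKM of 1 in each HCT116 library, and 4 and 7 did in adherent LOVO and LOVO spheroids. Their summed FPKM was 6.94 and 17.9 in HCT116 and 53.7 and 81.4 in LOVO. The fibroblast genes in that list did not move together: LUM reached 31.4 and 50.4 in LOVO and DCN 10.4 and 9.97, both with 0.02 or less in HCT116, while COL1A1 was highest in HCT116 spheroids (15.5, against 5.51 in adherent HCT116 and 9.89 and 6.10 in LOVO) and COL1A2 was near 0 in every library. Some markers also moved with growth form: in LOVO spheroids the endothelial PECAM1 had 6.35 against 0.036 in adherent LOVO, COL3A1 had 5.13 against 0.811 and the monocyte marker CD14 had 1.79 against 0.148, and in HCT116 spheroids the intestinal keratin KRT20 had 7.45 against 0.93 in adherent HCT116. The other endothelial markers in the list were CDH5, at 1.05 in adherent LOVO and 1.42 in LOVO spheroids, and VWF, at 0.332 or less in every library. The leukocyte marker PTPRC was at 0.0107 or less in every library. The part of these markers in the differences between lines and between growth forms was not tested.

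Mitochondrially encoded RNAs took up the largest part of the HCT116 spheroid library. All 37 genes together held 6.77% of the reads on genes in adherent HCT116 (95% interval 6.76 to 6.78), 11.1% in HCT116 spheroids, 3.65% in adherent LOVO (3.64 to 3.65) and 3.97% in LOVO spheroids (3.96 to 3.97). The share was 1.64 times as large in spheroids as in adherent cells of HCT116, and 1.09 times as large in LOVO. In such bulk libraries a smaller number of cells that express these RNAs and a smaller amount of RNA per cell cannot be told apart.

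The mRNAs held 5.71%, 9.39%, 2.95% and 3.53% of the reads, in the order adherent HCT116, HCT116 spheroids, adherent LOVO, LOVO spheroids. The rRNAs held 1.01%, 1.62%, 0.661% and 0.403%, and the tRNAs 0.0466%, 0.0888%, 0.0336% and 0.0305%. In HCT116 the spheroid share was above the adherent share for each class, by 1.65 times for mRNAs, 1.60 times for rRNAs and 1.91 times for tRNAs. In LOVO the mRNA share was 1.20 times as large in spheroids, whereas the rRNA share was 0.610 and the tRNA share 0.907 times as large. These shares are of reads on genes. The FPKM values below use other divisors, in LOVO 0.907 (adherent) and 1.05 (spheroids) times those reads, so the 2 scales can differ in direction. Within the mitochondrial reads, the rRNAs made up 15% and 14.6% in HCT116 (adherent, spheroids) and 18.1% and 10.2% in LOVO. Among the 10 genes with the highest FPKM in a library, 8, 10, 9 and 7 were mitochondrial, in the order adherent HCT116, HCT116 spheroids, adherent LOVO, LOVO spheroids. Among the 10 genes with the most reads, 6, 8, 5 and 5 were.

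The mRNAs for cytochrome c oxidase, complex IV, were the most abundant in every library. MT-CO1, the catalytic subunit (MT, 5904 to 7445, plus strand), had an FPKM of 10466 in adherent HCT116, 18693 in HCT116 spheroids, 7175 in adherent LOVO and 6907 in LOVO spheroids. MT-CO2 (7586 to 8269), which receives electrons from cytochrome c, had 11310.5, 15061, 5696 and 5227. MT-CO3 (9207 to 9990), the third mitochondrial subunit of the enzyme, had 7984, 13344, 5168 and 5455. These 3 mRNAs took the first 3 ranks of the 13 in all 4 libraries, and for each of them HCT116 spheroids were highest, adherent HCT116 next and the LOVO libraries close to each other. The log2 ratio, spheroids over adherent, in HCT116 was 0.84 for MT-CO1, 0.41 for MT-CO2 and 0.74 for MT-CO3. In LOVO the ratios were small, at -0.05 for MT-CO1, -0.12 for MT-CO2 and 0.08 for MT-CO3, and the first 2 of these lay above 0 when TPM, FPKM rescaled to the same sum in every library, was used in its place.

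The mRNAs of complex I, the NADH dehydrogenase at the entry of the respiratory chain, fell into 2 patterns in LOVO. MT-ND2 (4470 to 5511) had an FPKM of 2013 in adherent HCT116, 3383 in HCT116 spheroids, 1067 in adherent LOVO and 1749 in LOVO spheroids. MT-ND4 (10760.0 to 12137) had 5166, 6375, 2349 and 3258, and MT-ND4L (10470.0 to 10766), which shares its last 7 bases with the start of MT-ND4 and is carried with it on 1 bicistronic mRNA, had 6702, 7983, 3155 and 4381. These 3 were higher in spheroids of both lines. The log2 ratios were 0.75 in HCT116 and 0.71 in LOVO for MT-ND2, 0.30 and 0.47 for MT-ND4, and 0.25 and 0.47 for MT-ND4L.

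The other 4 complex I mRNAs were higher in spheroids of HCT116 and lower in spheroids of LOVO. MT-ND1 (3307 to 4262) had an FPKM of 1820.3 in adherent HCT116, 2666 in HCT116 spheroids, 1394 in adherent LOVO and 1125 in LOVO spheroids. MT-ND3 (10059 to 10404) had 3947, 4832, 1323 and 904. MT-ND5 (12337 to 14148), the longest of the mRNAs, had 2161, 2783, 1215 and 877. MT-ND6 (14149 to 14673), the only mRNA on the minus strand, had 2728, 3539, 1372.5 and 936. In each of these 4 the order of the libraries was HCT116 spheroids, adherent HCT116, adherent LOVO and LOVO spheroids. The log2 ratios in HCT116 ran from 0.29 for MT-ND3 to 0.55 for MT-ND1, with 0.37 for MT-ND5 and 0.38 for MT-ND6. In LOVO they were -0.31 for MT-ND1, -0.55 for MT-ND3, -0.47 for MT-ND5 and -0.55 for MT-ND6.

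MT-CYB, cytochrome b of complex III and the only subunit of that complex that mitochondria encode (14747 to 15887), had an FPKM of 2477 in adherent HCT116, 4528 in HCT116 spheroids, 1153 in adherent LOVO and 1658 in LOVO spheroids. It was higher in spheroids of both lines, by a log2 ratio of 0.87 (0.86 to 0.89) in HCT116, the largest of the 13 mRNAs there, and 0.52 (0.50 to 0.55) in LOVO. MT-ND5 and MT-CYB lie on either side of MT-ND6, and the ratio of MT-CYB to MT-ND5 was 1.15 in adherent HCT116, 1.63 in HCT116 spheroids, 0.949 in adherent LOVO and 1.89 in LOVO spheroids. Within both lines this ratio was higher in the spheroid library.

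Of the ATP synthase mRNAs, complex V, MT-ATP6 (8527 to 9207), which forms the proton channel together with the ring of c subunits, had an FPKM of 6737, 8784, 3223 and 2998 in the same order of libraries. MT-ATP8 (8366 to 8572) had only 161, 202, 106 and 104, the lowest of the 13 mRNAs in every library. Both proteins are translated from 1 bicistronic mRNA, yet the FPKM of MT-ATP6 was 41.7, 43.6, 30.5 and 28.7 times that of MT-ATP8. The other bicistronic pair did not show such a gap, since the FPKM of MT-ND4L was 1.30, 1.25, 1.34 and 1.34 times that of MT-ND4. MT-ATP8 is 207 bases long and rested on 392 to 701 reads, and how reads in its shared 46 bases were counted is not given in the sources used here. The log2 ratio, spheroids over adherent, was 0.38 for MT-ATP6 and 0.32 (0.17 to 0.47) for MT-ATP8 in HCT116. In LOVO it was -0.10 and -0.02 (-0.22 to 0.18), and both lay above 0 with TPM.

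The rRNAs of the mitochondrial ribosome moved in opposite directions in the 2 lines. MT-RNR1, the 12S rRNA of the small subunit (MT, 648 to 1601, plus strand), had an FPKM of 1057 in adherent HCT116, 1800.2 in HCT116 spheroids, 603 in adherent LOVO and 351 in LOVO spheroids. MT-RNR2, the 16S rRNA of the large subunit (1671 to 3229), had 5865, 8467.5, 4306 and 2239.9. For both, HCT116 spheroids were highest and LOVO spheroids lowest. The log2 ratio in HCT116 was 0.77 (0.74 to 0.79) for MT-RNR1 and 0.53 (0.52 to 0.54) for MT-RNR2. In LOVO it was -0.78 (-0.83 to -0.74) and -0.94 (-0.96 to -0.93), so that LOVO spheroids had 0.582 and 0.520 times the level of adherent LOVO.

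The direction of both rRNAs in each line was kept under each of 6 other scalings, pseudocounts and centrings, of which the pseudocounts cannot turn a direction. Set against MT-CO1 within the same library, MT-RNR2 stood at 0.560 in adherent HCT116, 0.453 in HCT116 spheroids, 0.60 in adherent LOVO and 0.324 in LOVO spheroids. Set against its downstream neighbour MT-ND1, it stood at 3.22, 3.18, 3.09 and 1.99. MT-RNR2 therefore kept nearly the same ratio to MT-ND1 in 3 of the libraries and a lower one in LOVO spheroids. This does not extend to MT-RNR1, since the ratio of MT-RNR2 to MT-RNR1 was 5.55, 4.70, 7.14 and 6.39. The library kit is one for mRNA, and how completely it took up rRNAs and tRNAs in each library was not tested.

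Over all 13 mRNAs the pattern in HCT116 was uniform. In HCT116, 13 of 13 mRNAs were higher in spheroids, where 45.8% of all genes compared were higher, with a median difference of 0.38 (range 0.25 to 0.87) against -0.03 over all genes. None of the 13 passed a difference of 1, which 2.19% of all genes did, and so no mRNA reached the threshold of 2 set for a large difference. In LOVO, 5 mRNAs were higher and 8 lower in spheroids, where 45.5% of all genes were higher and 53.5% lower, with a median of -0.05 (range -0.55 to 0.71) against -0.06 over all genes. The spread among the mRNAs, from the lowest to the highest difference, was 0.62 in HCT116 and 1.26 in LOVO.

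The direction in HCT116 held for all 13 mRNAs under each of the 6 other scalings, pseudocounts and centrings tried. A change of pseudocount cannot turn a direction, so only the scalings and the centring test it. In LOVO it held for 5 that were higher (MT-ND2, MT-ND4, MT-ND4L, MT-CYB and MT-CO3) and 4 that were lower (MT-ND1, MT-ND3, MT-ND5 and MT-ND6), and it turned for the 4 nearest to 0 (MT-CO1, MT-CO2, MT-ATP6 and MT-ATP8). TPM alone moved the median of all genes in LOVO by 0.15. Across the 13 mRNAs, which share their libraries and their precursors, the correlation of the log2 ratio with the start position was r = -0.22 in HCT116 and -0.09 in LOVO, and for LOVO against HCT116 it was -0.51 in adherent cells and -0.34 in spheroids. With GC content, spheroids against adherent cells, it was 0.56 in HCT116 and 0.10 in LOVO, and between the lines the log2 ratios had r = 0.36.

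A fit across both lines was the only replicated test of growth form. It used limma on log2(FPKM + 1) with the line as a covariate and 1 residual degree of freedom, so the lines stood in for replicates. At an adjusted p under 0.05 it called 0 of 34 members and 0% of all 14429 genes, and at an unadjusted p under 0.05 it gave 3 members (MT-TI, MT-TS1 and MT-TD, none of them an mRNA or rRNA) and 1545 genes. The smallest adjusted p of limma over all genes was 0.462. The difference between the changes in HCT116 and in LOVO has no replicate and was not tested.

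Between the lines every mRNA was lower in LOVO, in adherent cells, where 46.9% of all genes were lower, and in spheroids, where 48.4% were. In adherent cells the median difference of LOVO minus HCT116 over the 13 mRNAs was -0.99 (range -1.58 to -0.38), and 5 of 13 were below -1, as were 16.4% of all genes. In spheroids the median was -1.44 (range -2.42 to -0.87) and 9 of 13 were below -1, as were 15% of all genes. The medians over all genes were 0.07 and 0.04. MT-ND3 was the farthest apart in both growth forms, 2.98 times lower in adherent LOVO and 5.35 times lower in LOVO spheroids. MT-ND1 was closest in adherent cells (1.31 times lower) and MT-ND4L in spheroids (1.82 times lower). The rRNAs were lower in LOVO as well, with log2 ratios of -0.81 and -2.36 for MT-RNR1 and -0.45 and -1.92 for MT-RNR2 in adherent cells and spheroids. These directions held in each of the 6 other scalings, pseudocounts and centrings, of which the pseudocounts cannot turn a direction. TPM moved the median of all genes in the spheroid comparison by 0.22.

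The line term of the same limma fit, in which the 2 growth forms stand in for replicates, was read after the values had been seen. It called 24.7% of all genes and 3 of 34 members. Without the mean-variance trend it called 3569 of 14429 genes and 9 of 34 members. The added members were MT-CO2, MT-ATP6, MT-ND4, MT-CYB, MT-ND6 and MT-TY, all lower in LOVO. With a pseudocount of 0.1 or 0.01 it called 3239 or 2843 of 14429 genes and 2 of 34 members. Without a filter on low values it called 0 genes and 0 members. MT-ND3 was lower in LOVO by a log2 difference of -2.0 (limma, adjusted p = 0.0437), in both of 2 growth forms. The other 12 mRNAs had adjusted p from 0.0865 to 0.297 in limma. The call for MT-ND3 was made in 7 of 10 settings, with adjusted p from 0.0185 to 1.00, the last without a filter on low values. The other 2 members were tRNAs that were higher in LOVO, and they are described with the tRNAs below.

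The tRNAs were covered thinly and very unevenly. Mature tRNAs are short and folded and are caught poorly by an mRNA library, and a read that spans the border of a tRNA in a precursor may be counted there too. The 22 tRNAs shared 9517, 13756, 6650.0 and 5828 reads in the order of libraries above. 12 of them had more than 3 reads in every library, 4 had 3 or fewer in every library, and MT-TF was listed at 0 in all. MT-TN, MT-TC, MT-TY and MT-TP, all on the minus strand, together held 95.9%, 95.2%, 89.1% and 90.7% of the tRNA reads, and no other tRNA passed 241 reads. MT-TN, MT-TC and MT-TY sit in the tRNA cluster between MT-ND2 and MT-CO1, and MT-TP lies at the end of the gene map beside the control region. Since the strand of counting is not given in the sources used here, reads of these tRNAs and reads from the opposite strand at the same positions cannot be told apart.

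MT-TN, the tRNA for asparagine (5657 to 5729), had an FPKM of 2791 in adherent HCT116, 4855 in HCT116 spheroids, 2390.2 in adherent LOVO and 1783 in LOVO spheroids. MT-TC, for cysteine (5761 to 5826), had 2136, 3574, 1437 and 1374. MT-TP, for proline (15956 to 16023), had 1174, 2189, 727 and 382, and all 3 followed the order of libraries seen for the rRNAs. MT-TY, for tyrosine (5826 to 5891), had 353, 610, 173 and 242 and was higher in spheroids of both lines. The log2 ratios in HCT116 lay close together, at 0.80 for MT-TN, 0.74 for MT-TC, 0.90 for MT-TP and 0.79 for MT-TY. In LOVO they were -0.42, -0.07, -0.93 and 0.49, and that of MT-TC had an interval of -0.16 to 0.03 and lay above 0 with TPM. On the other strand, MT-TL1, the tRNA for leucine that directly follows MT-RNR2 (3230.0 to 3304), had 105, 98.4, 179 and 88.8, with a log2 ratio of -0.09 (-0.44 to 0.26) in HCT116 and -1.01 (-1.33 to -0.70) in LOVO.

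Among the 12 tRNAs with more than 3 reads in every library, 11 were higher in spheroids of HCT116 (median 0.95), where 45.8% of all genes were. In LOVO, 11 of the 12 were lower in spheroids (median -0.76), where 53.5% of all genes were. The counting interval lay off 0 for 10 of those higher in HCT116 and for 6 of those lower in LOVO, counts without a share over all genes. The least abundant of the 12 were MT-TS2, MT-TE and MT-TM, for serine, glutamate and methionine. MT-TS2 had 16, 53, 28 and 15 reads in the order of libraries above, MT-TE had 21, 67, 21 and 8, and MT-TM had 4, 7, 11 and 6. Only the first 2 had intervals off 0 in both lines. Their log2 ratios were 2.01 (1.18 to 2.91) and 1.95 (1.23 to 2.73) in HCT116 and -1.07 (-2.08 to -0.11) and -1.56 (-2.94 to -0.33) in LOVO. Past a difference of 2 lay 1 member in HCT116, MT-TT for threonine with 6 and 25 reads, where 0.201% of all genes were that much higher and 0.506% that much lower. In LOVO it was 0 members, with 1.81% of all genes higher and 0.943% lower by that much, while 4 of these 12 tRNAs were below -1 there, as were 7.85% of all genes. Between the lines the 2 growth forms differed: in adherent cells 8 of these 12 tRNAs were higher and 4 lower in LOVO (median 0.68), where 53% of all genes were higher and 46.9% lower. In spheroids 12 of 12 were lower in LOVO (median -1.35), where 48.4% of all genes were lower.

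MT-TD and MT-TS1 were higher in LOVO in both growth forms, and they were singled out after their values had been seen. MT-TD, the tRNA for aspartate (7518 to 7585, plus strand), had 3 and 9 reads in HCT116 (adherent, spheroids) and 92 and 133 in LOVO, which is an FPKM of 2.16, 7.88, 75.4 and 97.2. MT-TS1, a tRNA for serine (7446 to 7514, minus strand), had 2 and 3 reads in HCT116 and 28 and 54 in LOVO, an FPKM of 1.42, 2.59, 22.6 and 38.9. Both LOVO libraries were above both HCT116 libraries for each gene. The log2 ratio of LOVO to HCT116 was 5.12 (3.53 to 7.43) in adherent cells and 3.63 (2.66 to 4.79) in spheroids for MT-TD. For MT-TS1 it was 3.99 (2.0 to 7.11) and 3.91 (2.29 to 6.23).

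In the line term of the limma fit the difference was 4.03 for MT-TD (adjusted p = 0.00659) and 3.38 for MT-TS1 (adjusted p = 0.00506), each higher in LOVO in both of 2 growth forms. Both were called in 8 of 9 settings, and the exception was the fit without a filter on low values, where no gene was called (adjusted p of limma 0.298 and 0.284, with 6918 genes at an unadjusted p under 0.05). The 2 genes are neighbours on the genome, separated by 3 bases, between MT-CO1 and MT-CO2. MT-CO1 and MT-CO2 themselves were lower in LOVO, with log2 ratios of -0.54 and -0.99 in adherent cells and -1.44 and -1.53 in spheroids.

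Copies of mitochondrial DNA in the nuclear genome can share reads with the members. GENCODE transcripts of nuclear genes held 49.5% of all 50-base windows of MT-CO1, 46.7% of those of MT-ATP6, 43.6% of MT-ND2, between 0 and 30.6% of the other mRNAs and 14% of MT-RNR2, and none of those of MT-RNR1 and the tRNAs. The windows were looked for in annotated transcripts only. Nuclear copies outside them, of the tRNAs or MT-RNR1 for example, would not be seen, and reads shared with such copies were not tested. Of 407 nuclear pseudogenes of mitochondrial genes, 98 had a read, and MTATP6P1, MTND2P28 and MTCO1P12 held 98.7% of their reads. These copies are 98.5%, 98.2% and 98.6% identical to MT-ATP6, MT-ND2 and MT-CO1.

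MTND2P28 had an FPKM of 209, 343, 112 and 191 in the order of libraries above, which was 10.4%, 10.1%, 10.5% and 10.9% of that of MT-ND2. MTATP6P1 had 366, 468, 331 and 285, or 5.43%, 5.33%, 10.3% and 9.51% of MT-ATP6. For MTCO1P12 the values were 33.6, 56.2, 52.8 and 60.7, or 0.321%, 0.301%, 0.736% and 0.880% of MT-CO1. The level of MTND2P28 relative to its member was nearly the same in every library, while the relative levels of the other copies were higher in both LOVO libraries. How reads that match both a member and a copy were placed is not given in the sources used here. MT-CO1, MT-ATP6, MT-ND2, MT-CO3 and MT-CO2 have 29% to 49.5% of their windows shared. Their levels are therefore uncertain by an amount that these values do not bound. The same applies to members with fewer shared windows, among them MT-ND1 (22.1%), MT-ND6 (17.9%) and MT-RNR2 (14%).

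The nuclear subunits of the same complexes were mostly lower in spheroids of both lines. Of the mitochondrial mRNAs, 13 of 13 were higher in HCT116 spheroids and 8 of 13 lower in LOVO spheroids. The LOVO count depends on the scale, since 4 of those 8 lay above 0 with TPM. In HCT116, 28 of 36 nuclear subunits of complex I were lower in spheroids (median -0.23), as were 8 of 9 of complex III (median -0.27), 10 of 11 of complex IV (median -0.19) and 15 of 15 of complex V (median -0.38), where 53.4% of all genes were lower. In LOVO, 33 of 36, 9 of 9, 11 of 11 and 15 of 15 were lower, with medians of -0.52, -0.58, -0.63 and -0.80, where 53.5% of all genes were lower. For complexes III, IV and V the mitochondrial mRNAs of both lines lay above the median of the nuclear subunits, but for complex I in LOVO MT-ND3 and MT-ND6, both at -0.55, lay below it. ATP5F1B, the catalytic beta subunit of ATP synthase, had an FPKM of 389, 219, 552 and 208, while MT-ATP6 had its highest value in HCT116 spheroids. COX8A, a small subunit of complex IV, had 156, 68.2, 207 and 159, and CYC1, cytochrome c1 of complex III, had 149.9, 80.7, 152 and 89.6. NDUFB10 of complex I had 65.1, 33.1, 63.2 and 43.0. Each of these 4 was lower in spheroids of both lines, and none was called in the limma fit across the lines.

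**Figure D1:**
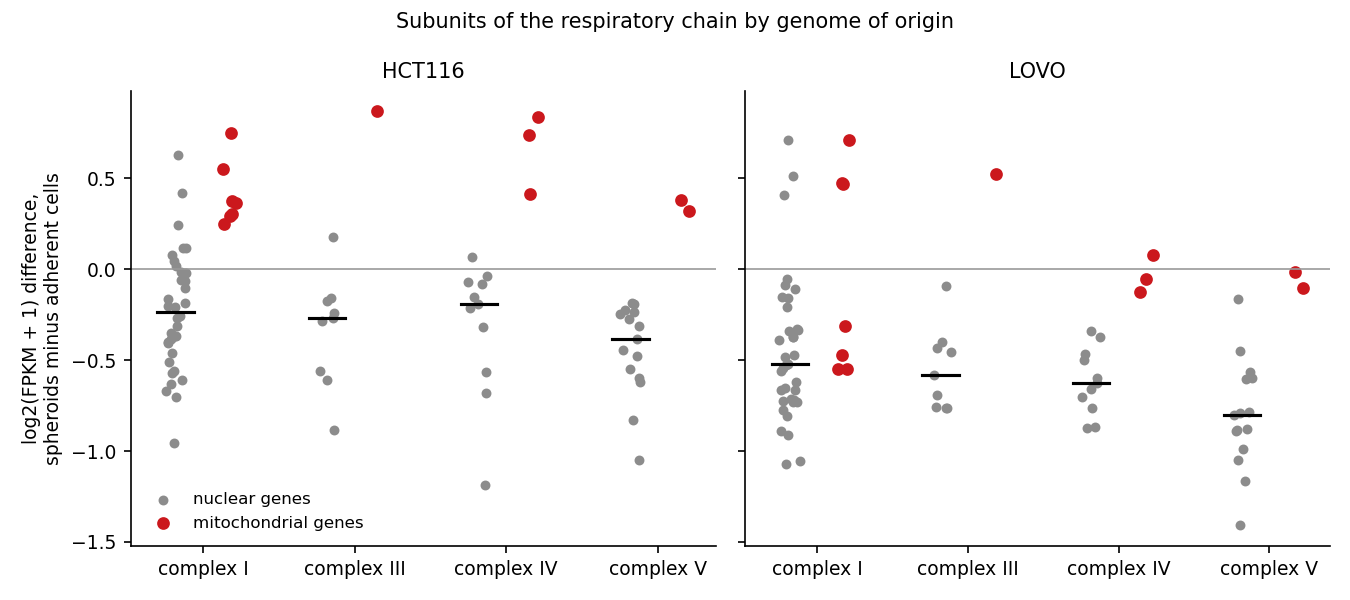
Difference of log2(FPKM + 1), spheroids minus adherent cells (y axis), of the subunits of complexes I, III, IV and V (x axis) in HCT116 (left) and LOVO (right), with nuclear genes in grey, their median as a black line and mitochondrial genes in red. In HCT116 all red points lie above 0 and above the medians of the nuclear genes, which run from -0.38 to -0.19.

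Of 8 nuclear genes of mitochondrial transcription, 3 were higher and 5 lower in spheroids of HCT116 (median -0.06). Of all genes, 53.4% were lower there (median -0.03), so this split was near that of all genes. In LOVO, 2 were higher and 6 lower (median -0.29), where 53.5% of all genes were lower (median -0.06). POLRMT, the mitochondrial RNA polymerase, had an FPKM of 33.4, 32.2, 18.8 and 22.8 in the order of libraries above, so its level in HCT116 differed little between growth forms. TFAM, which packs mitochondrial DNA and bends its promoters, had 12.4, 9.70, 16.3 and 8.92. TFB2M, the factor that opens the promoter, had 14.7, 12.7, 33.5 and 16.5, and MTERF3, a regulator of mitochondrial transcription and ribosome assembly, had 13.5, 10.4, 10.6 and 6.37. In LOVO, TFB2M, TFAM and MTERF3 were lower in spheroids, while POLRMT was higher with a difference of 0.26.

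Of 26 genes that process or stabilise mitochondrial RNA, 22 were lower in spheroids of HCT116 (median -0.21) and 25 in spheroids of LOVO (median -0.38). Of all genes, 53.4% were lower in HCT116 and 53.5% in LOVO. Below -1 were 3 of the 26 in LOVO, where 7.85% of all genes were. LRPPRC and SLIRP, partners in a complex that binds and stabilises mitochondrial mRNAs, had an FPKM of 33.1, 24.7, 32.4 and 13.5, and of 13.2, 8.12, 17.8 and 6.99. HSD17B10, a subunit of the enzyme that cuts the 5′ ends of mitochondrial tRNAs, had 52.3, 39.2, 175.8 and 81.5. These 3 were lower in spheroids of both lines.

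Of 9 genes for replication and upkeep of mitochondrial DNA, 9 were lower in spheroids of HCT116 (median -0.36) and 6 in LOVO (median -0.50). Of all genes, 53.4% were lower in HCT116 and 53.5% in LOVO. MGME1, an exonuclease, SSBP1, the single-strand binding protein, and RNASEH1 were each lower in spheroids of both lines, with FPKM of 15.1, 9.17, 26.1 and 17.3 for MGME1. Of 8 regulators of mitochondrial biogenesis, 6 were lower in spheroids of each line (medians -0.49 and -0.60), beside the same shares of all genes. Among them NRF1, an activator of nuclear respiratory genes, had 7.47, 4.13, 7.80 and 4.10. PPARGC1A, the coactivator PGC-1 alpha, had 1 and 6 reads in HCT116 and an FPKM of 5.36 and 2.73 in adherent LOVO and LOVO spheroids. As no gene was called in the limma fit across the lines, none of these lists held a called gene.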

How the data were processed

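RNA-seq was performed by the authors on 4 libraries (1 per group) with an mRNA kit from total RNA. They deposited FPKM values for 58735 genes. The aligner, the counter, the strand of counting and the treatment of reads with several matches are not given in the sources used here. The submitters' processing notes name the mouse builds GRCm38 and mm10, whereas all 58735 gene identifiers are human and are found in GENCODE 29, whose coordinates were used.

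FPKM times gene length was a whole multiple of 1 step per library for 100% of values above 0 (tolerance 0.0001 reads), which gave the reads behind each value. The FPKM divisors were 0.998, 1.09, 0.907 and 1.05 times the reads on genes, so the table carries a scaling. Differences are of log2(FPKM + 1), which understates changes of low genes, and log2 ratios are of FPKM. Genes averaging 1 FPKM or more were compared, without a test within a line. Past the threshold of a difference of 2 lay 29 genes higher and 73 lower in HCT116 and 261 and 136 in LOVO, with 1 member, MT-TT, among them. A threshold of 1 is an alternative. limma 3.58.1 (R 4.3.3) with trend was fitted on all 4 libraries with Benjamini-Hochberg adjustment, after a check on simulated data. The changed genes in that check had the same fold in both lines, so it does not cover genes whose change differs between lines. The labels do not say whether libraries came from separate cultures. Ratios against 3 or fewer reads in 1 library carry their interval, and none was taken where both libraries had 3 or fewer.

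The members and lists were chosen with earlier results of these data known. All mRNAs and rRNAs were named. tRNAs were named from those with more than 3 reads in every library (the 5 highest and the 3 lowest by mean FPKM), nuclear genes from the 3 largest absolute mean differences per list with POLRMT, TFAM, TFB2M and PPARGC1A besides, and pseudogenes by reads. MT-TD, MT-TS1, MT-TI, MT-TT, MT-TF and MT-TH fall outside this rule and were named after their values were seen. NDUFA4 was counted with complex IV. Alternatives were pseudocounts of 0.1 and 0.01, TPM, a trimmed-mean (TMM-style) scaling, a library size without mitochondrial reads, centring, no filter or a minimum of 5 FPKM, protein-coding genes alone, and limma without line or trend.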

Additional observations from a re-analysis of the deposited data

Results flagged for a closer look

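For 14 of the 31 members with a ratio in both lines (45.2%) the level in spheroids against adherent cells went opposite ways in HCT116 and LOVO with both counting intervals off 0. Among all compared genes with both ratios 14.8% did so, and 7.87% were higher in HCT116 spheroids and lower in LOVO spheroids. An interval lies off 0 more readily in genes with more reads, and these shares were not matched for read depth. MT-CO1, with 198412 and 214289 reads in LOVO (adherent, spheroids), was counted at a log2 ratio of -0.055 there. With 1 library per group these differences between the lines were not tested, and the values below are the log2 ratio in LOVO minus that in HCT116. Of the rRNAs, MT-RNR1 differed by -1.55 and MT-RNR2 by -1.47. Of 7 mRNAs, 4 belong to complex I, with -0.86 for MT-ND1, -0.84 for MT-ND3, -0.84 for MT-ND5 and -0.93 for MT-ND6. The other 3 were MT-CO1 at -0.89, MT-CO2 at -0.54 and MT-ATP6 at -0.49, and these 3 lay above 0 in LOVO when TPM was used. Of 5 tRNAs, MT-TN differed by -1.22 and MT-TP by -1.83. The remaining 3 rested on few reads and had larger values, -2.65 for MT-TH, -3.07 for MT-TS2 and -3.51 for MT-TE. All 14 were higher in HCT116 spheroids and lower in LOVO spheroids, on the FPKM scale, and none was the other way round.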

How the results depend on the processing

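No paired analysis was possible because each group has 1 library and the labels give no replicate numbers, apart from the pairing by line that the limma fit of growth form already carries as a covariate. For the same reason no replicate could be left out. In HCT116 the median mRNA difference (0.38) was 0.31 with the trimmed-mean scaling, 0.45 with a library size without mitochondrial reads and 0.42 after centring on the median of all genes. The rRNA median there (0.65) was 0.67 with TPM and 0.58, 0.72 and 0.68 under those 3. In LOVO the mRNA median (-0.05) reversed to 0.15 with TPM and 0.00024 after centring, and the rRNA median (-0.86) was -0.66 and -0.81. TPM also turned MT-CO1 (0.15), MT-CO2 (0.081), MT-ATP6 (0.10), MT-ATP8 (0.19) and MT-TC (0.14) in LOVO, centring turned MT-CO1 (0.00024) and MT-ATP8 (0.039), and the trimmed-mean scaling turned MT-ATP8 (3.1e-05). LOVO minus HCT116 in adherent cells (-0.99) was -0.94 with TPM, -1.04 without mitochondrial reads and -1.06 after centring. In spheroids (-1.44) it was -1.20, -1.55 and -1.48, and -1.34 with the trimmed-mean scaling. With TPM the LOVO medians of the nuclear lists were -0.15 for transcription, -0.35 for replication, -0.20 for RNA processing, -0.46 for biogenesis and -0.34, -0.38, -0.44 and -0.61 for complexes I, III, IV and V. The causes of these shifts were not tested.

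Of protein-coding reads the mRNAs made up 5.91%, 9.81%, 3.04% and 3.67% (adherent HCT116, HCT116 spheroids, adherent LOVO, LOVO spheroids). Of the summed FPKM the members made up 24.7%, 36.9%, 14.7% and 16.1%, and of all reads the mRNAs alone 5.71%, 9.39%, 2.95% and 3.53%. Genes past the threshold numbered 128, 184, 748 and 274 with a pseudocount of 0.1 (higher and lower in HCT116, then in LOVO), 221, 237, 950 and 319 with 0.01, and 316, 480, 1236 and 1133 at a threshold of 1. TPM gave 80 and 129 in HCT116 and 661 higher in LOVO. A minimum of 5 FPKM left 13 higher in HCT116 and 156 in LOVO, and protein-coding genes alone 13 higher in HCT116. The limma fit of growth form called 0 genes in each of 11 settings, with 163 to 1906 at an unadjusted p under 0.05.

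Depth limits the tRNAs, of which 12 of 22 had more than 3 reads in every library, and not the mRNAs, whose intervals were narrow except for MT-ATP8. With 1 library per group the spread between cultures is unknown.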
